A study of Mus musculus with 43 samples.

Results

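A set of 9 genes through which endothelial cells (ECs) act on clotting and clot lysis was followed in RNA-seq of sorted mouse brain ECs. They are Vwf, F8, Adamts13, Thbd, Procr, Pros1, Tfpi, Plat and Entpd1, and they were found by symbol as 9 of the 54532 genes in the count table. The 43 libraries came from mice of 2 months and 7 inbred strains. The 5 long-inbred strains were 129S1/SvImJ (n = 9), A/J (n = 5), C57BL/6J (n = 6), DBA/2J (n = 5) and NOD/ShiLtJ (n = 6), and the 2 recently wild-derived strains were CAST/EiJ (n = 6) and WSB/EiJ (n = 6). The labels name no transgene and no treatment. ECs were sorted as CD31-positive cells lacking CD45 and CD11b from cortex (21 libraries) or hippocampus (22 libraries) of females (16 libraries) and males (27 libraries), and each title carries the tag high (29 libraries) or low (14 libraries), a tag whose meaning is not given in the sources used here. The labels do not say which cortex and hippocampus libraries came from the same mouse, so the p-values measure the spread between libraries, which may in part be shared or technical.

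The vessel wall keeps blood fluid and yet starts a plug where it is torn. ECs store von Willebrand factor (Vwf), which captures platelets and carries coagulation factor VIII (F8), and Adamts13 cuts Vwf into less active pieces. Thrombomodulin (Thbd) on the EC surface turns thrombin into an activator of protein C, the endothelial protein C receptor (Procr) presents protein C to it, and protein S (Pros1) is the cofactor of activated protein C. Tissue factor pathway inhibitor (Tfpi) blocks the start of coagulation, tissue plasminogen activator (Plat) starts fibrin breakdown, and CD39 (Entpd1) removes the ATP and ADP that activate platelets. Brain ECs are known for a high ratio of capillary to large-vessel cells, and Vwf is commonly stronger in veins and arteries than in capillaries.

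The libraries held between 1626534 and 49372356 counts, with a median of 5790701, and the 6 WSB/EiJ libraries were among the shallow ones (1626534 to 5331064). A floor of 3 counts corresponded to 0.0537 to 1.84 CPM (counts relative to the library total after TMM scaling), and it covers counting error only. Each of the 20 EC markers was over this floor in some library, and their summed level ranged from 11653 to 23825 CPM over the libraries. Markers of other cells were present too, with pericyte markers (10 genes) at 2133 to 9753 CPM in sum, astrocyte markers (10 genes) at 1122 to 19792 CPM and microglial markers (10 genes) at 0.555 to 152 CPM. The share of counts assigned to 3 rRNA-like genes ran from 1.59 to 12.1% in females and from 12.97 to 29.3% in males, without overlap. In bulk samples, fewer cells of a type and less RNA per cell cannot be told apart.

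Of the 9 genes, Entpd1 was the one whose reference promoters are shown, because it had the widest difference in strain means among the 4 genes that passed between strains, and entries at 2 start sites. The gene lies on the plus strand of chromosome 19 (40612366 to 40741602, GRCm38). The 250 bases before each start, from RefSeq on GRCm38.p6, the C57BL/6J reference, hold no annotated Entpd1 exon, and capitals mark GGAA or its reverse complement TTCC, the core of ETS-factor sites. The window of the first start is chr19:40612116-40612365 and that of the second is chr19:40659520-40659769, both on the plus strand.
Entpd1 first start: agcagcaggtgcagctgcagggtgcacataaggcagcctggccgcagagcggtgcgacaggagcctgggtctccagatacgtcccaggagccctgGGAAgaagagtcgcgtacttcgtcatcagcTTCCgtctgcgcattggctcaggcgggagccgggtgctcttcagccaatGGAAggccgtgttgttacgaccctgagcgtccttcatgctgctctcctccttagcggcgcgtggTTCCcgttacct
Entpd1 second start: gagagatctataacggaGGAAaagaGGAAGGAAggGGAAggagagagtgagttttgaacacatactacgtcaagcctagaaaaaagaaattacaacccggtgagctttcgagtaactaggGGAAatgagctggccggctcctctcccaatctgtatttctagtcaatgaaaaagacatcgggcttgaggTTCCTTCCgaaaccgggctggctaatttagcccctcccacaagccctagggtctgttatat
The first window held 4 such matches at 62.4% GC and the second held 7 at 47.2% GC. A match is common, since 93.4% of 32851 promoter windows of the same length held at least 1. GATA (or TATC) occurred once before the first start and not before the second, against 53.6% of all windows, and CACCC (or GGGTG) occurred 2 times before the first start only, against 52% of all windows. Neither window held GGGCGG (or CCGCCC, 32.7% of all windows) or TATAAA (or TTTATA, 12.4% of all windows). The sequence of WSB/EiJ at these windows was not analysed here.

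Per exon length, the 9 genes spanned several orders of magnitude. Vwf (chromosome 6, 125546774 to 125686679, plus strand) and Thbd (chromosome 2, 148404466 to 148408188, minus strand, a single exon) stood highest, with 54.6 ± 29.4 and 52.4 ± 25.2 CPM per kb of exon (mean ± SD, n = 43), respectively. Plat (chromosome 8, 22757727 to 22782844, plus strand) reached 22.0 ± 13.4 CPM per kb, Pros1 (chromosome 16, 62854307 to 62929346, plus strand) 20.5 ± 7.52 and Entpd1 16.2 ± 9.14. Tfpi (chromosome 2, 84432855 to 84476775, minus strand) and Procr (chromosome 2, 155751117 to 155755471, plus strand) were low, at 4.61 ± 2.75 and 4.17 ± 3.12 CPM per kb. The neighbours Vwf and Thbd, Plat and Pros1, Pros1 and Entpd1, and Tfpi and Procr in this order lay within each other's spread. F8 (chromosome X, 75172715 to 75382615, minus strand) had no count in 19 of 43 libraries and Adamts13 (chromosome 2, 26973416 to 27009628, plus strand) in 41 of 43. Dividing by the longest transcript in place of all exons raised Vwf to 99.4 CPM per kb and left Thbd at 52.4, so the distance between these 2 genes depends on the length used. Unscaled for length, Vwf was the 74th most abundant of 29120 genes tested, with 878 ± 472 CPM.

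**Figure D1:**
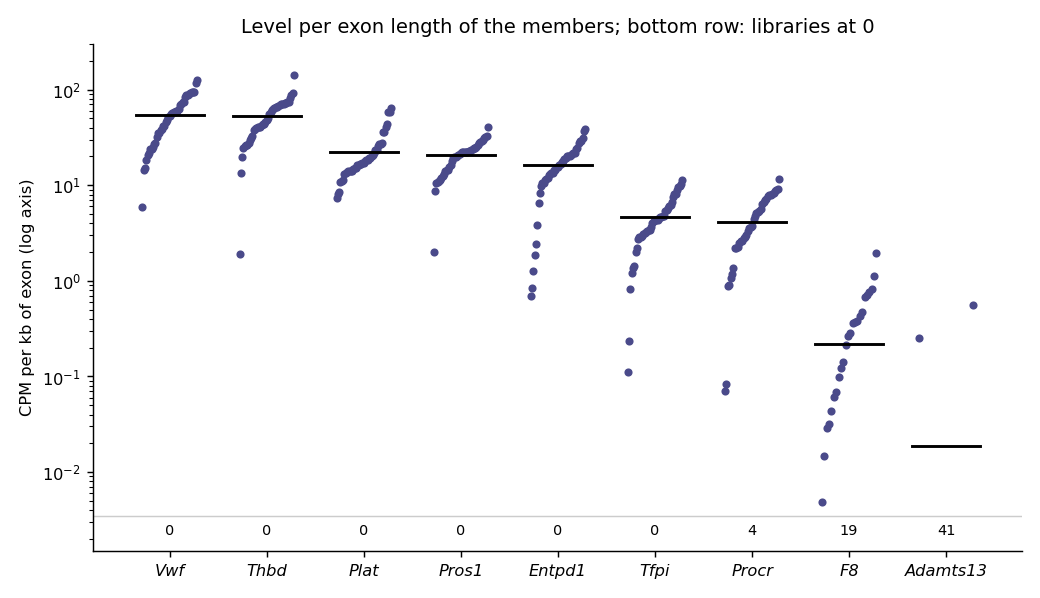
Level of each of the 9 genes in CPM per kb of exon (log axis), with 1 point per library (43 libraries), a bar at the mean, and the number of libraries without a count printed along the bottom. Vwf and Thbd lie highest, and F8 and Adamts13 have no count in 19 and 41 libraries.

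All 9 genes passed the filter on low values (at least 0.5 CPM in at least 1 library), Adamts13 through few libraries. In the comparison of the 7 strains by edgeR's quasi-likelihood test with Benjamini-Hochberg adjustment over 29120 genes, 4 of the 9 genes passed at 0.05, against 2.68% of all genes tested. They were Entpd1 (adjusted p = 1.4e-09), Vwf (adjusted p = 3.96e-07), Plat (adjusted p = 3.4e-06) and Thbd (adjusted p = 0.0326). Each of the 4 had its own pattern. Entpd1 was low in WSB/EiJ, Plat was high in CAST/EiJ, Vwf was high in both wild-derived strains, and Thbd was low in WSB/EiJ. Reads of every strain were aligned to mm10, and the paper describes CAST/EiJ and WSB/EiJ as carrying the most single nucleotide polymorphisms. The part of such sequence differences in the counts was not tested.

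Of these 4 genes Entpd1 showed the widest difference. In the 6 WSB/EiJ libraries its level was 3.90 CPM at the lowest, 8.73 at the median and 21.4 at the highest, resting on 9 to 53 counts a library. The 37 libraries of the other strains ranged from 36.7 to 214 CPM. Hence no WSB/EiJ library overlapped any library of another strain. The median was 75.2 CPM in 129S1/SvImJ (36.7 to 214), 125 in C57BL/6J (58.2 to 205), 113 in NOD/ShiLtJ (80.0 to 161) and 85.9 in CAST/EiJ (45.9 to 121). The A/J libraries held 174, 113, 107, 155 and 134 CPM, and the DBA/2J libraries 98.3, 71.7, 58.8, 92.3 and 63.2 CPM. By mean log2(CPM + 1) the strains followed the order A/J, C57BL/6J, NOD/ShiLtJ, CAST/EiJ, 129S1/SvImJ, DBA/2J and WSB/EiJ. In a contrast of the strain fit, Entpd1 was 10.5-fold lower in WSB/EiJ than in the mean of the 5 long-inbred strains (log2 fold difference -3.40 ± 0.35 SE, edgeR adjusted p = 2.82e-11). It was 8.68-fold lower in WSB/EiJ than in CAST/EiJ (-3.12 ± 0.38, edgeR adjusted p = 9.24e-09), a contrast added after the data were seen, whereas CAST/EiJ and the long-inbred strains differed by -0.28 ± 0.27 (edgeR adjusted p = 1). The low level was found in both regions of WSB/EiJ, with means of 13.9 CPM in cortex and 6.35 CPM in hippocampus (n = 3 each). The EC markers summed to 14950 to 21258 CPM in WSB/EiJ, and the median over libraries of their mean log2(CPM + 1) was 8.65 there against 8.95 to 9.34 in the other strains. Of the 20 EC markers, 2 (Ly6c1 and Cldn5) were lower in WSB/EiJ than in the long-inbred strains. The median log2 fold difference over the 20 markers was -0.00089 in that contrast. Microglial markers, of interest because microglia also express Entpd1, summed to 15.2 to 152 CPM in WSB/EiJ and to 0.555 to 61.5 CPM in the other strains, while pericyte markers summed to 5265 to 9753 CPM in WSB/EiJ and 6 of 10 were higher than in the long-inbred strains. Smooth muscle markers (10 genes) had a median log2 fold difference of -1.49 in the same contrast, with Tagln and Acta2 lower, and arterial EC markers (10 genes) one of -2.39, with Bmx lower, against a median of -0.66 over all genes tested. The part of these cells in the Entpd1 level was not tested. Within Entpd1 lie 3 annotated genes on the same strand (Gm16027, Gm8783 and AC166063.1), which share 0 exonic bases with it.

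Plat set the other wild-derived strain apart. The 6 CAST/EiJ libraries ranged from 227 to 401 CPM with a median of 316, and the 37 other libraries from 45.5 to 222 CPM. Every CAST/EiJ library was thus above every other library. WSB/EiJ libraries ranged from 82.2 to 222 CPM (median 104), 129S1/SvImJ from 45.5 to 169 (median 88.5), C57BL/6J from 70.5 to 174 (median 121) and NOD/ShiLtJ from 88.9 to 121 (median 100.5). The 5 A/J libraries held 130, 121, 53.4, 145 and 84.8 CPM, and the 5 DBA/2J libraries 104, 67.5, 106, 87.1 and 137 CPM. These values overlapped widely among the 6 strains other than CAST/EiJ. Plat was 2.97-fold higher in CAST/EiJ than in the long-inbred mean (log2 fold difference 1.57 ± 0.20 SE, edgeR adjusted p = 2.37e-08). In WSB/EiJ the difference from that mean was 0.29 ± 0.22 (edgeR adjusted p = 0.773), and WSB/EiJ was 2.44-fold lower than CAST/EiJ (-1.29 ± 0.29, edgeR adjusted p = 0.00688). In CAST/EiJ the mean was 345 CPM in cortex and 283 CPM in hippocampus (n = 3 each). In the CAST/EiJ contrast with the long-inbred mean, 0 of the 20 EC markers passed, against 1.22% of all genes tested. Rgs5 and Vtn of 10 pericyte markers and Cnp of 6 oligodendrocyte markers were lower. Efnb2 of 10 arterial EC markers, Ivns1abp of 8 capillary EC markers and Hba-a1 of 6 erythroid markers were higher. The part of these cells in the Plat level was not tested.

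Vwf was high in both wild-derived strains. Its level ranged from 1133 to 1518 CPM in CAST/EiJ (median 1408) and from 902 to 2038 CPM in WSB/EiJ (median 1420). Among long-inbred strains the range was 511 to 1864 CPM in 129S1/SvImJ (median 905), 404 to 1189 in C57BL/6J (median 759) and 297 to 941 in NOD/ShiLtJ (median 552). The A/J libraries held 386, 232, 621, 332 and 955 CPM. The DBA/2J libraries held 95.9, 243, 448, 350 and 604 CPM, the lowest strain mean of the 7. Of the 31 long-inbred libraries, 22 lay below every wild-derived library and none lay above all of them. The strain means ran from 1450.2 ± 362 CPM in WSB/EiJ (SD, n = 6) to 348 ± 194 CPM in DBA/2J (SD, n = 5), a 4.17-fold range. Against the long-inbred mean, Vwf was 2.28-fold higher in CAST/EiJ (log2 fold difference 1.19 ± 0.20 SE, edgeR adjusted p = 2.7e-05) and 2.43-fold higher in WSB/EiJ (1.28 ± 0.20 SE, edgeR adjusted p = 1.01e-05). Markers of platelets and megakaryocytes, which also make Vwf, summed to 0 to 0.432 CPM in WSB/EiJ, 3.47 to 36.1 in CAST/EiJ and up to 77.7 CPM in C57BL/6J. Venous EC markers (8 genes) summed to a median of 712 CPM in CAST/EiJ, 393 in WSB/EiJ and 454 in DBA/2J. Against the long-inbred mean their median log2 fold difference was 0.49 in CAST/EiJ and -0.37 in WSB/EiJ. For arterial EC markers (10 genes) it was 0.46 in CAST/EiJ, with Efnb2 higher, and -2.39 in WSB/EiJ, with Bmx lower. Over all genes tested it was -0.12 in CAST/EiJ and -0.66 in WSB/EiJ. The part of these cells in the Vwf level was not tested.

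Thbd differed less. It ranged from 163 to 525 CPM in NOD/ShiLtJ (median 265), 146 to 343 in CAST/EiJ (median 273), 97.0 to 273 in C57BL/6J (median 166) and 50.2 to 276 in 129S1/SvImJ (median 151). The A/J libraries held 246, 95.7, 151, 245 and 218 CPM and the DBA/2J libraries 249, 181, 207, 254 and 266 CPM. The WSB/EiJ libraries held 7.07 CPM at the lowest, 109 at the median and 153 at the highest. WSB/EiJ overlapped other strains, with 26 of 37 libraries above its highest value. Thbd was 2.12-fold lower in WSB/EiJ than in the long-inbred mean (log2 fold difference -1.08 ± 0.29 SE, edgeR adjusted p = 0.0308) and 2.62-fold lower than in CAST/EiJ (-1.39 ± 0.35 SE, edgeR adjusted p = 0.023). In the WSB/EiJ contrast the median over all genes tested was -0.66, many of them sparse. The 2 lower EC markers and the smooth muscle, arterial EC and pericyte differences given above for WSB/EiJ stand beside this difference too. Their part in it was not tested. Both calls rested on single libraries. The difference of WSB/EiJ from the long-inbred mean was -0.84 (edgeR adjusted p = 0.1) without its female hippocampus library at 7.07 CPM (29 counts), -1.04 (0.101) without its female cortex library and -1.11 (0.0515) without its male hippocampus library tagged high. The call between strains ended with the omission of any 1 of 6 libraries, namely the latter 2, both females of NOD/ShiLtJ and both males of CAST/EiJ tagged high (edgeR adjusted p = 0.0521 to 0.103), and among male libraries alone the adjusted p was 0.598. The difference from CAST/EiJ ended with the omission of any 1 of 5 libraries, both females of WSB/EiJ and the CAST/EiJ female cortex library and males tagged high (adjusted p up to 0.0767).

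**Figure D2:**
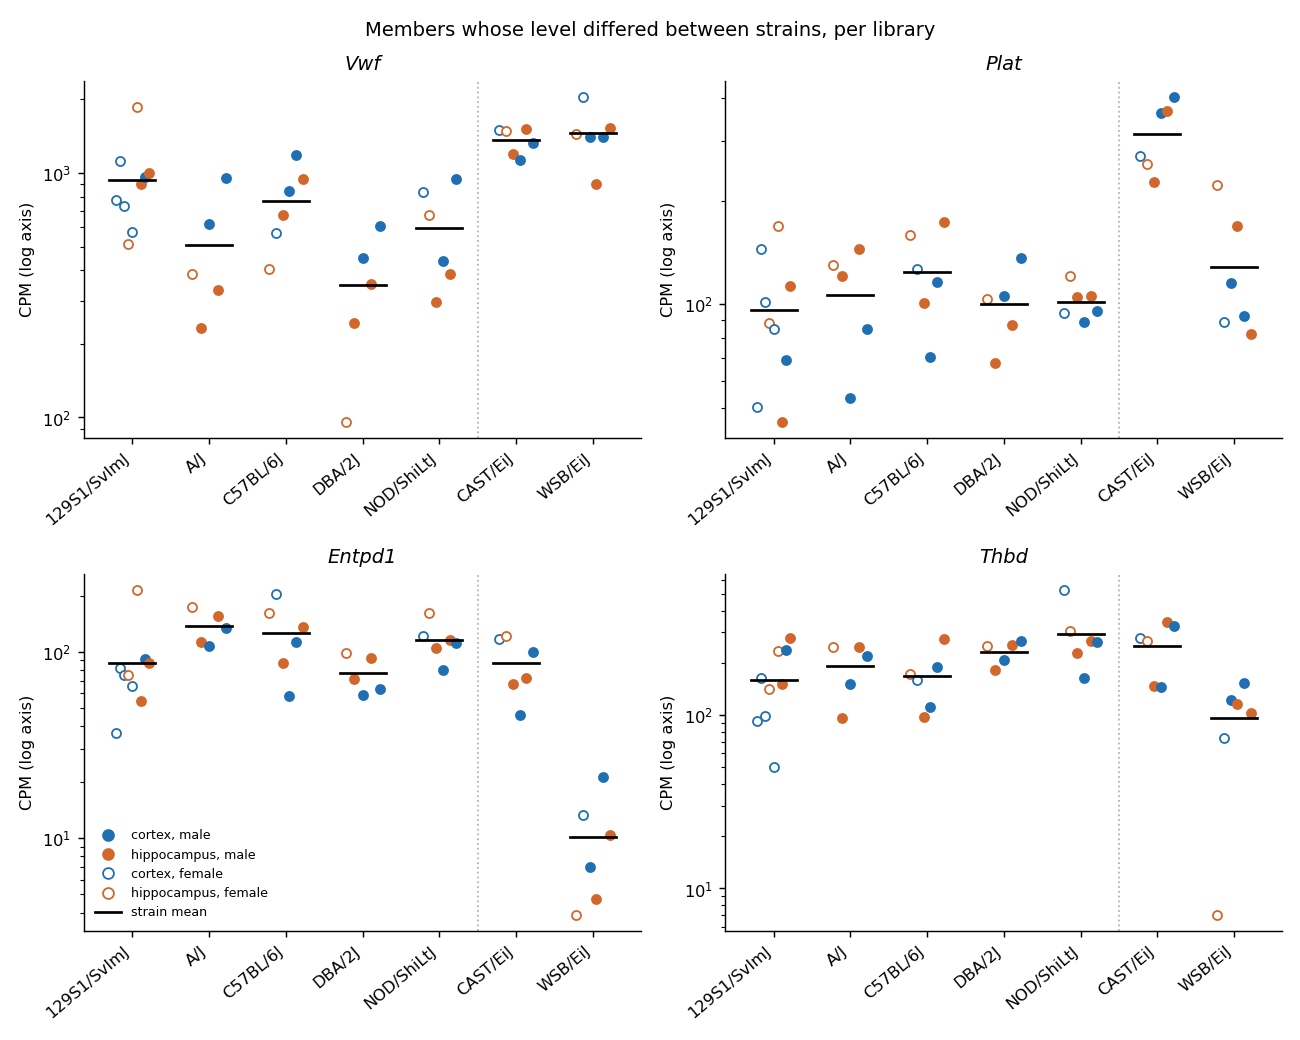
CPM (log axes) of Vwf, Plat, Entpd1 and Thbd in each of the 43 libraries by strain, with colour for region, open symbols for females and bars for strain means. The dotted line separates long-inbred from wild-derived strains. All 6 CAST/EiJ libraries lie above all others for Plat, and all 6 WSB/EiJ libraries lie below all others for Entpd1.

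The study's design also sets the 2 wild-derived strains together against the long-inbred ones. Here 2 of the 9 genes passed, both higher, against 0.749% of all genes tested. Vwf was 2.09-fold higher (log2 fold difference 1.06 ± 0.19 SE, edgeR adjusted p = 0.000221), with 1406 ± 273 CPM in wild-derived (n = 12) and 674 ± 360 CPM in long-inbred libraries (SD, n = 31). Plat was 2.11-fold higher (1.07 ± 0.18 SE, edgeR adjusted p = 9.01e-05), with 221 ± 114 and 105 ± 33.0 CPM, and without CAST/EiJ its difference was 0.29 (edgeR adjusted p = 0.802). Entpd1 missed the threshold (-1.12 ± 0.30 SE, edgeR adjusted p = 0.0524), and the 2 wild-derived strains did not share its level. With counts summed per strain, which leaves 2 against 5 values, neither Vwf (1.32, edgeR adjusted p = 0.711) nor Plat (0.91, edgeR adjusted p = 0.783) passed. Set apart, CAST/EiJ had 2 of the 9 genes past the threshold (1.22% of all genes tested), both higher. WSB/EiJ had 3 (1.95% of all genes tested), with Vwf higher and Entpd1 and Thbd lower. In WSB/EiJ against CAST/EiJ, 3 genes passed (1.22% of all genes tested), and Entpd1, Plat and Thbd were lower in WSB/EiJ. These 2 comparisons with the long-inbred strains share their control libraries.

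**Figure D3:**
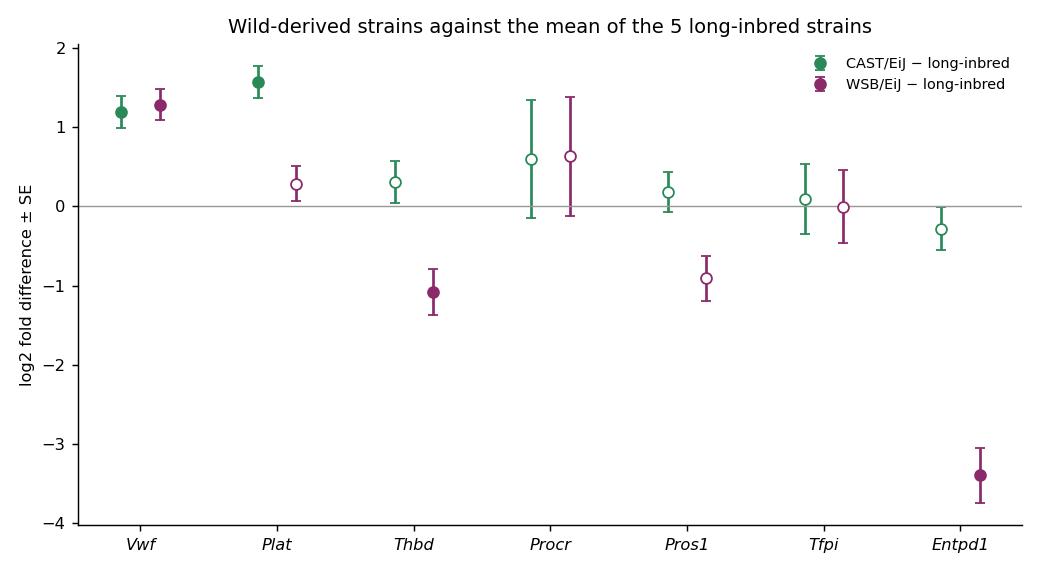
Log2 fold difference ± SE of CAST/EiJ and of WSB/EiJ from the mean of the 5 long-inbred strains for 7 of the genes, with filled symbols for an adjusted p under 0.05 and open symbols otherwise. Vwf lies near 1.2 in both strains, Plat is high in CAST/EiJ alone of the 2, and Entpd1 lies at -3.40 in WSB/EiJ. F8 and Adamts13 are left out because of their low counts.

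The anticoagulant genes Pros1, Tfpi and Procr did not pass between strains (edgeR adjusted p = 0.366, 0.82 and 0.885). Pros1 had its lowest level in WSB/EiJ, at 8.22 to 73.0 CPM (median 48.1), against 43.3 to 164 CPM in the other 37 libraries. The difference of WSB/EiJ from the long-inbred mean was -0.91 ± 0.28 (log2 scale, SE), with an edgeR adjusted p of 0.0709 and a DESeq2 adjusted p of 0.0111, and without the WSB/EiJ male cortex library tagged low the edgeR adjusted p was 0.0388. Tfpi had a median of 23.6 CPM over 43 libraries (0.613 to 62.0). Its spread was uneven, since CAST/EiJ held 21.9 to 31.9 CPM and WSB/EiJ 0.613 to 53.5 CPM. Procr had a median of 7.30 CPM (0 to 23.8) and no count in 4 libraries. The mean of Procr was 3.15 ± 4.57 CPM in DBA/2J (SD, n = 5) and 10.7 ± 7.56 CPM in WSB/EiJ (SD, n = 6), so that the spread within a strain was as wide as the distance between strains. F8 exceeded 3 counts in 19 of 43 libraries and reached 19.4 CPM in 1 male hippocampus library of 129S1/SvImJ. In WSB/EiJ, F8 had 4 counts in all 6 libraries together. Its difference from the long-inbred mean was -3.32 ± 2.12 (log2 scale, SE, edgeR adjusted p = 0.605), not distinguishable at this depth. Over the 7 strains the edgeR adjusted p of F8 was 0.83. Adamts13 had 5 counts in 1 CAST/EiJ library and 13 counts in 1 NOD/ShiLtJ library, both male hippocampus tagged low, and no count in the other 41 libraries. The F8 locus overlaps Fundc2 on the opposite strand and 2 processed pseudogenes, with 0 exonic bases shared.

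**Figure D4:**
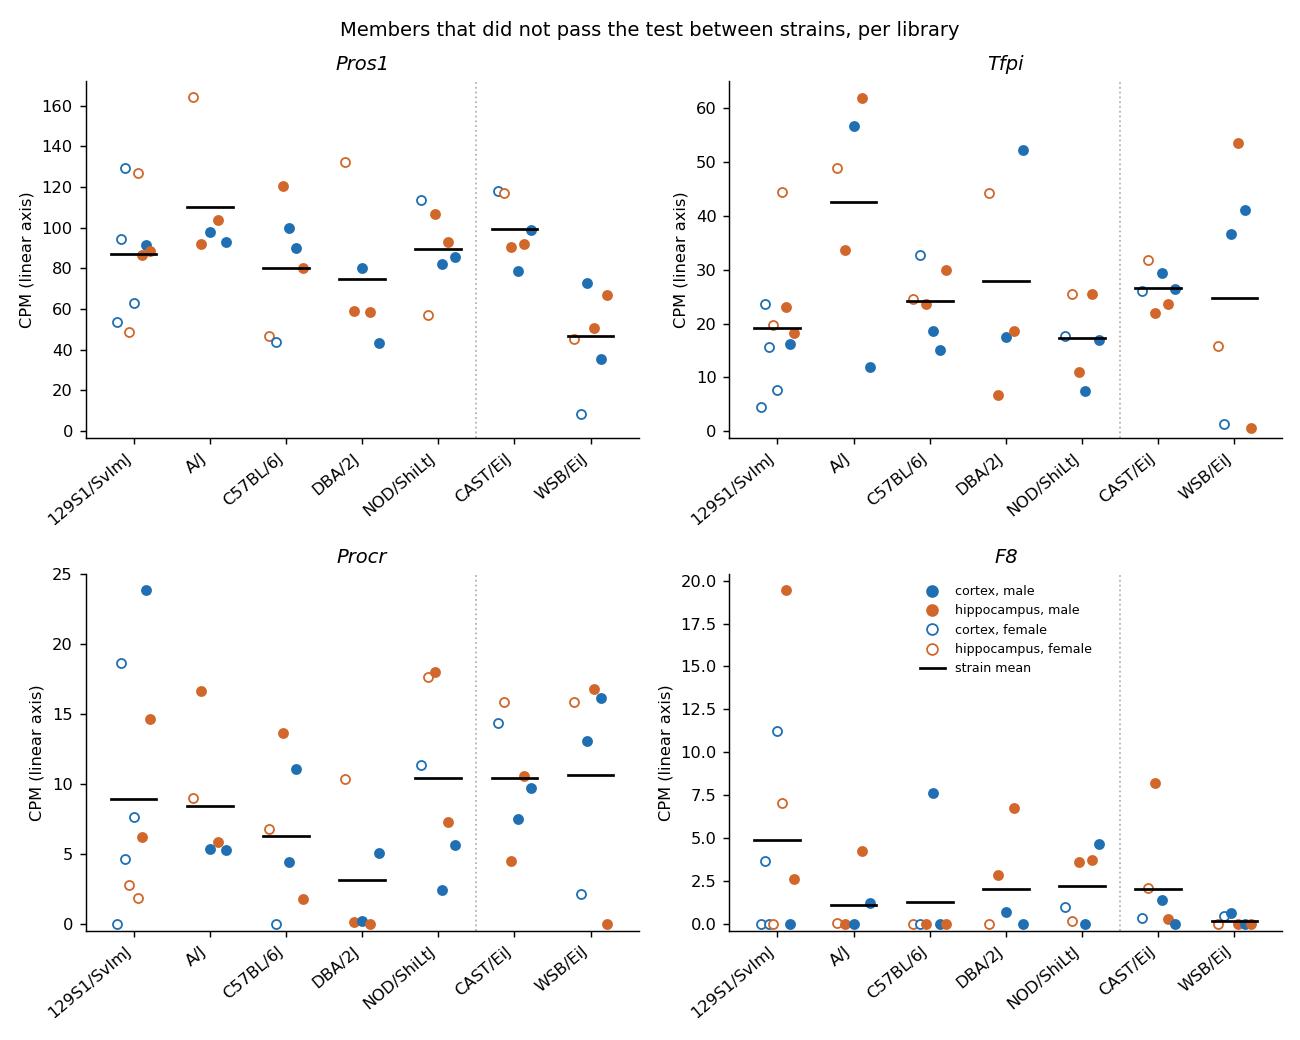
CPM (linear axes) of Pros1, Tfpi, Procr and F8 in each of the 43 libraries by strain, drawn as for the genes that differed. The strains overlap for each of the 4 genes, and WSB/EiJ holds the lowest Pros1 library at 8.22 CPM.

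When strains next to each other in the order of means were compared by exact two-sided permutation tests on log2(CPM + 1), 3 of 54 pairs had an unadjusted p under 0.05 and none passed after adjustment over the 54. Plat separated CAST/EiJ from WSB/EiJ, the next strain, by 1.35 on the log2 scale (exact permutation p = 0.00216, the smallest that 6 against 6 libraries allow; adjusted p = 0.117). Entpd1 separated DBA/2J from WSB/EiJ by 2.98, with no overlap between their libraries (exact permutation p = 0.00433, adjusted p = 0.117). Vwf separated CAST/EiJ from 129S1/SvImJ by 0.63 (exact permutation p = 0.0188, adjusted p = 0.338). All other pairs had an unadjusted permutation p above 0.05. Adamts13 pairs in which neither strain had a count could not differ, yet they stayed among the 54. Plat, at the smallest p for 6 against 6 libraries, still had an adjusted permutation p of 0.117. A fully separated pair could thus miss the threshold after adjustment. The order was chosen from the same values, so these tests describe spread only.

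Region and sex left the 9 genes without a call. Between hippocampus and cortex 0 of the 9 genes passed, against 0.0755% of all genes tested, and DESeq2 called 0 of them as well. No member had an unadjusted p under 0.05 in edgeR without covariates. Vwf held a mean of 789 ± 521 CPM in hippocampus (n = 22) and 971 ± 405 CPM in cortex (SD, n = 21), a difference of -0.30 ± 0.21 on the log2 scale (SE). Cortex and hippocampus libraries of the same strain, sex and title tag could be set side by side 17 times, and Vwf was higher in cortex in 13 of these, with a median ratio of 1.41 (0.877 to 2.88). The 4 exceptions were males, both pairs of CAST/EiJ and the pairs tagged high of WSB/EiJ and 129S1/SvImJ. With strain and sex in the model the Vwf difference was -0.40 ± 0.13 (log2 scale, SE), which had an unadjusted p of 0.00386 and an edgeR adjusted p of 0.584. Between females and males 0 of the 9 genes passed, against 2.85% of all genes tested, and no member had an unadjusted p under 0.05 and none passed by DESeq2. Entpd1 held 108 ± 63.7 CPM in females (n = 16) and 80.1 ± 39.6 CPM in males (SD, n = 27), a difference of 0.43 ± 0.27 (log2 scale, SE). Because rRNA-like shares did not overlap between the sexes, sex and that share cannot be told apart here. Depth differed between the sexes too, with a median of 21242058 counts in females and 5257353 in males. The difference between wild-derived and long-inbred strains did not itself pass the test by region (0% of all genes tested, 675 genes at an unadjusted p under 0.05) or by sex (0.0206% of all genes tested) for any of the 9 genes in edgeR, and none of them had an unadjusted p under 0.05 there. For Vwf the change in that difference from cortex to hippocampus was 0.29 ± 0.39, and for Plat it was -0.28 ± 0.38 (log2 scale, SE).

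The title tag separated Thbd. Among the 27 male libraries, Thbd was 1.67-fold higher in the 14 tagged high than in the 13 tagged low (log2 fold difference 0.74 ± 0.16 SE, edgeR adjusted p = 0.00569), with 244 ± 62.8 against 147 ± 40.4 CPM (SD). It was the 1 gene of 9 that passed, against 1.06% of all genes tested. In libraries tagged low, Thbd ran from 95.7 to 228 CPM with a median of 146, and in those tagged high from 103 to 343 CPM with a median of 259. Of the 14 high libraries, 10 lay above every low library. The males allow 13 comparisons of a high with a low library of the same strain and region, and Thbd was higher in the high library in 12 of them, with ratios of 0.889 to 2.81 and a median of 1.62. The exception was WSB/EiJ hippocampus, at 103 CPM in the high and 116 CPM in the low library. Entpd1 was higher in the high library in 13 of 13 such comparisons (ratios 1.08 to 3.04) and Vwf in 12 of 13 (ratios 0.998 to 2.16). When strain and region entered the model, 3 of the 9 genes passed, against 2.25% of the 24452 genes tested in that fit, from which 3077 genes were dropped because their fitted counts ran far above the observed ones. These were Thbd (0.72 ± 0.13 SE, edgeR adjusted p = 0.000449), Vwf (0.45 ± 0.12 SE, edgeR adjusted p = 0.0213) and Entpd1 (0.61 ± 0.17 SE, edgeR adjusted p = 0.0392). Without these covariates the difference was 0.43 ± 0.21 (SE) for Vwf, with an edgeR adjusted p of 0.604, and 0.50 ± 0.29 (SE) for Entpd1, with an edgeR adjusted p of 0.652. Plat was higher in the high library in 11 of 13 comparisons (ratios 0.485 to 2.49). With strain and region in the model it did not pass (0.30 ± 0.17 SE, edgeR adjusted p = 0.71). Pros1 showed no such direction, since it was higher in the high library in 6 of 13 comparisons. EC markers moved with the tag, with a median sum of 19925 CPM in high and 16269 CPM in low male libraries, and 5 of 20 were higher and 1 lower in high ones. Astrocyte markers summed to a median of 3274 CPM in high and 5302 CPM in low libraries, and neuronal markers to 328 and 763 CPM. Pericyte markers summed to a median of 3888 CPM in high and 6841 CPM in low libraries, with Rgs5 lower in high ones, and erythroid markers (6 genes) to 351 and 122 CPM, with Hbb-bs and Hba-a2 higher in high ones. The rRNA-like share had a median of 19.0% in high and 18.6% in low male libraries. The part of these other cells in the tag difference was not tested.

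**Figure D5:**
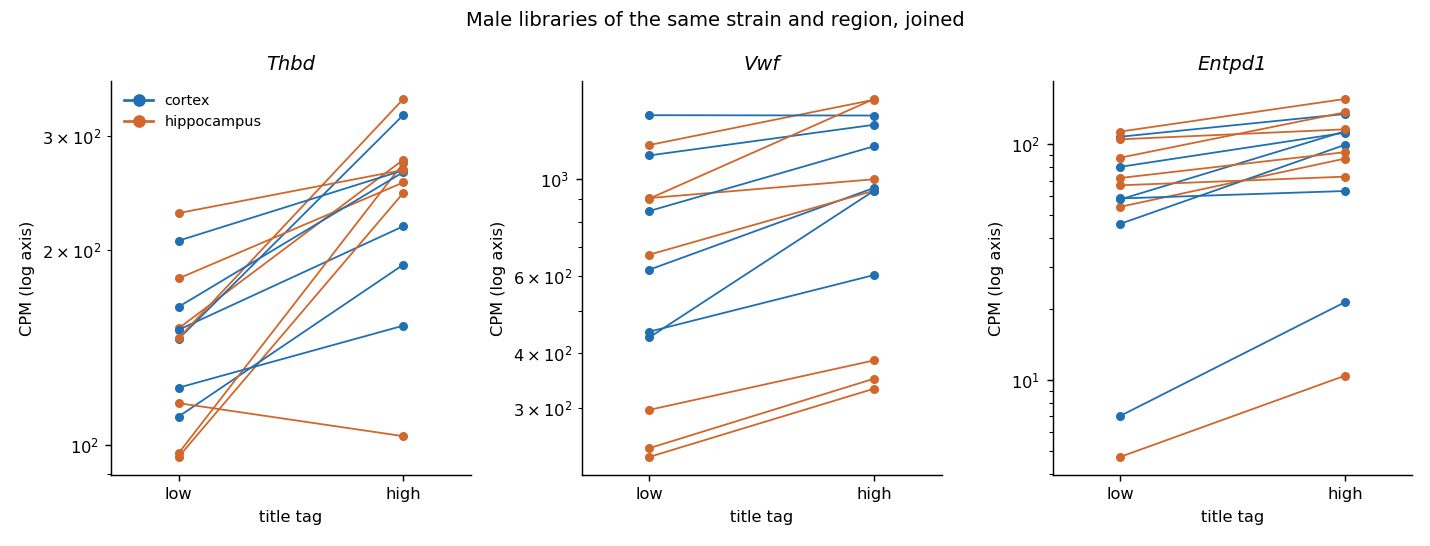
CPM (log axes) of Thbd, Vwf and Entpd1 in male libraries tagged low and high, with a line joining the 2 libraries of the same strain and region (13 lines a panel) and colour for region. Entpd1 is higher in the high library along all 13 lines, and Thbd and Vwf along 12.

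Beyond the 9 genes, 62 genes of the wider pathway in 8 groups were listed, of which 53 passed the filter. Between strains 4 of the 53 passed, against 2.68% of all genes tested, namely F5, Angpt2, Serpine2 and Mmrn2. Coagulation factors, mostly made by the liver, were sparse. Of 16, 13 exceeded 3 counts in some library, and only F5 (30.6 CPM) and F3 (6.23 CPM), the tissue factor gene, exceeded a mean of 1 CPM over 43 libraries. F5, the cofactor of factor Xa, passed between strains (edgeR adjusted p = 0.000174) and was lower in CAST/EiJ than in the long-inbred mean (-2.70 ± 0.68, log2 scale, SE, edgeR adjusted p = 0.0194), a call that ended with the omission of any 1 of 4 CAST/EiJ libraries, both females and both males tagged high (adjusted p up to 0.0943). F5 had a median of 1.78 CPM in CAST/EiJ and of 38.4 CPM in WSB/EiJ, where 1 library reached 195 CPM, and WSB/EiJ was higher than CAST/EiJ by 4.02 ± 0.80 (log2 scale, SE, edgeR adjusted p = 0.00103). Among 9 anticoagulant inhibitors, Serpine2, which inhibits thrombin and plasminogen activators, passed between strains (edgeR adjusted p = 0.0233), with means of 71.4 ± 43.2 CPM in WSB/EiJ and 187 ± 45.4 CPM in NOD/ShiLtJ (SD, n = 6 each), and without the NOD/ShiLtJ male cortex library tagged low its adjusted p was 0.0565. Proc, which encodes protein C, and Serpina5 had no count. Among 11 fibrinolysis genes, S100a10, part of a plasminogen receptor with Anxa2, was higher in CAST/EiJ (2.53 ± 0.69, log2 scale, SE, edgeR adjusted p = 0.0383), with 29.7 to 64.3 CPM there, but its adjusted p passed 0.05 with any 1 of 12 libraries left out, all 6 of CAST/EiJ among them, and reached 0.154.

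Of 8 genes of Vwf storage granules and partners, Angpt2, an antagonist of the Tie2 receptor that shares these granules, was higher in wild-derived strains (1.91 ± 0.40, log2 scale, SE, edgeR adjusted p = 0.00338). This was the only one of the 53 to pass in that comparison (0.749% of all genes tested), and it rested on 1 WSB/EiJ female cortex library at 285 CPM, without which the difference was 1.13 (edgeR adjusted p = 0.364) and the call between strains also ended (adjusted p = 0.696). Mmrn2, an EC matrix protein, passed between strains (edgeR adjusted p = 0.036), from 221 ± 50.7 CPM in A/J (SD, n = 5) to 478 ± 126 CPM in NOD/ShiLtJ (SD, n = 6), and its call ended with the omission of any 1 of 11 libraries from A/J, C57BL/6J, CAST/EiJ and NOD/ShiLtJ (adjusted p up to 0.103). Selp, whose product shares the granules of Vwf, exceeded 3 counts in 2 of 43 libraries. Among 5 genes that restrain platelets, Nos3 was abundant at 357 CPM and none passed in any comparison. The same held for the 4 thrombin receptors and for the 5 genes of factor maturation and F8 export. Of 4 protein S receptors and ligands, Axl was lower in females (-0.90 ± 0.20, log2 scale, SE, edgeR adjusted p = 0.00191), and of the anticoagulant inhibitors Anxa5 was higher in females (0.61 ± 0.17, log2 scale, SE, edgeR adjusted p = 0.0258), the latter with an adjusted p of up to 0.0806 when any 1 of 6 libraries was left out. These were the 2 of the 53 that passed between the sexes, against 2.85% of all genes tested. Axl kept its call in 4 of 6 alternatives, losing it in libraries titled high (edgeR adjusted p = 0.169) and with the rRNA-like share as a covariate (edgeR adjusted p = 0.205), and Anxa5 kept its call in 2 of 6 (adjusted p up to 0.357). Of the 53, 0 passed between regions, against 0.0755% of all genes tested, and 0 between title tags, against 1.06%.

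Finally, the genes whose log2(CPM + 1) followed each of the 4 strain-dependent genes most closely over the 43 libraries were listed among 14615 genes with a mean of at least 1 CPM. For Entpd1 they were Ly6c1 (Pearson r = 0.896), Fmo1 (0.822) and Cd34 (0.784), and for Thbd they were Ctbp2 (0.814), Rab11fip5 (0.786) and Hs3st1 (0.781). Vwf was followed by Ildr2 (0.698), Xdh (0.698) and Adipor2 (0.653), and Plat by Rps15-ps2 (0.776), Gm10709 (0.761) and Gm12599 (0.757). The points share strain, depth and composition, so the values are descriptions of these libraries. Rps15-ps2 is a pseudogene, and the paper lists Gm10709 among ribosomal protein pseudogenes. Reads of such genes may be split with their parent genes in the authors' counting.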

How the data were processed

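Libraries were made by the authors from total RNA of sorted ECs with a stranded, rRNA-depleted low-input kit, and per the labels reads were aligned with HISAT2 2.1.0, handled with SAMtools 1.9 and counted with featureCounts of Subread 1.4.4 on the mouse genome build mm10. The strand setting of the counting is not given in the sources used here. The deposited values are raw counts per gene (54532 genes). Depth ranged from 1626534 to 49372356 counts, which limits the precision of sparse genes such as F8.

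Groups came from the labels. Only genes reaching 0.5 CPM in 1 or more libraries entered the tests, run in edgeR 4.0.16 and R 4.3.3 (TMM scaling, quasi-likelihood fit with bias-adjusted deviances on the trended dispersion, Benjamini-Hochberg adjustment over all genes tested, threshold 0.05). The fit was tested on simulated data with known changes, where a sizeable part of the calls between strains were genes that had not been changed, and most of the changed genes were not called. This limit bears on all calls between strains, those near the threshold such as Thbd, Serpine2 and Mmrn2 included. CAST/EiJ and WSB/EiJ were compared with the unweighted mean of the 5 long-inbred strains. From fits with covariates, any gene with a fitted count over 5 times its highest observed count was dropped beforehand, because the fit failed on such genes. DESeq2 1.42.0, other scalings, filters, covariates and subsets, and the omission of each library, were alternatives. Permutation tests used scipy 1.17.1. Gene positions are from GENCODE M21, which matched 54409 genes. Of the 9 genes, 6 had an entry in the RefSeq promoter table. Named were all 9 genes, every pathway gene past the threshold in the comparison by origin and up to 3 in any other, and for each gene past the threshold between strains the 3 genes most like it. The 9 genes and all lists were chosen with earlier results of these data known.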

Additional observations from a re-analysis of the deposited data

Results flagged for a closer look

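Within a strain, 58 groups of 4 to 10 libraries (1 gene in 1 strain) were searched for a library far from the others. Of these, 6 were flagged. The limits used flag about 1 in 20 groups when values are normally distributed. A group with counts in 1 library only is always flagged, as F8 in C57BL/6J and Adamts13 in CAST/EiJ and NOD/ShiLtJ were. The 6 can therefore not be set against that share. Thbd in WSB/EiJ stood at 7.07 CPM in the female hippocampus library, against 73.9 to 153 CPM in the other 5. Pros1 in WSB/EiJ stood at 8.22 CPM in the female cortex library, against 35.5 to 73.0 CPM in the other 5. Pros1 in A/J reached 164 CPM in the female hippocampus library, against 92.1 to 104 CPM in the other 4. F8 in C57BL/6J reached 7.62 CPM (36 counts) in the male cortex library tagged low and had no count in the other 5. Adamts13 reached 1.25 CPM (5 counts) in 1 CAST/EiJ library and 2.75 CPM (13 counts) in 1 NOD/ShiLtJ library, and had no count in the other 5 libraries of either strain.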

How the results depend on the processing

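The strain calls of Entpd1, Vwf and Plat held under all 8 alternatives and with each of the 43 libraries left out, as did the Entpd1 and Vwf differences of WSB/EiJ and the Vwf and Plat differences of CAST/EiJ from the long-inbred strains. Thbd lost its strain call in 5 of 8 alternatives, with adjusted p = 0.0575 by DESeq2, 0.0602 with DESeq2's size factors, 0.0515 in libraries titled high, 0.598 in males and 0.0535 with the rRNA-like share as a covariate. Its difference by title tag held under all 5 alternatives and all 27 omissions. By origin, Entpd1 passed in 9 of 18 alternatives and 11 of 43 omissions, with log2 fold differences of -1.33 to -1.001 over the omissions. Pros1, uncalled by origin at -0.27, stood at 0.15 without WSB/EiJ. All 126 strain levels recomputed with DESeq2's size factors or as medians stayed within 1 SD. With those size factors, C57BL/6J took the place of WSB/EiJ below CAST/EiJ in the order for Plat.

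Counts of called genes also moved with the setting. DESeq2 called 1335 genes between strains (781 in edgeR), 395 by origin (218), 540 for CAST/EiJ (355), 1158 for WSB/EiJ (568), 1045 for WSB/EiJ against CAST/EiJ (355), 61 by region (22) and 635 by tag (293). With edgeR's default deviances 13526 genes passed between strains, 6712 by origin, 2908 for CAST/EiJ and 1849 for WSB/EiJ. Males alone gave 474 between strains, 123 by origin, 235 for CAST/EiJ and 193 for WSB/EiJ. Libraries titled high gave 136 by origin, 221 for CAST/EiJ, 854 for WSB/EiJ and 448 by sex. By origin, cortex alone gave 40 genes, hippocampus alone 68 with 0 of the 9 genes (Vwf 1.21, adjusted p = 0.0619; Plat 0.94, adjusted p = 0.0775), and counts summed per strain 7 with 0 of the 9. Covariates gave 45 by region, 550 by tag with 3 of the 9 genes, and, for the rRNA-like share, 59 by sex (830). With single libraries left out, 244 to 644 genes passed for WSB/EiJ (244 without its female cortex library), 235 to 384 for WSB/EiJ against CAST/EiJ (235 without the CAST/EiJ female cortex library) and 19 to 37 by region (37 without a 129S1/SvImJ female cortex library). The cause of these shifts was not tested. No paired analysis was possible because titles carry replicate numbers only among 129S1/SvImJ females, so that no groups compared share 2 numbers, and the labels do not tie libraries to mice.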
